A study of Brassica oleracea with 12 samples.

Results

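The transcripts described here are those of WRKY transcription factor genes in leaves of ornamental kale (Brassica oleracea var. acephala). The members were the rows of the deposited gene table whose gene name or description contains WRKY, which gave 21 of 45325 rows. Only 10920 rows carry a description, so WRKY genes without an annotation in the table were not found by this rule. RNA was sequenced from the variegated line JC007-2B, a double haploid mutant from microspore culture, in 4 groups of 3 libraries. S1 was entirely green leaves without veins, S2 was leaves without veins in which a white center was starting to form inside a green margin, S3_C was the white leaf center and S3_S the green leaf margin of variegated leaves. All groups share this single line, there was no green-leaved control line, and the labels state the removal of veins for S1 and S2 only. The paper describes the change of leaf color as following a period of chilling temperature, so stage and temperature cannot be told apart. The labels do not say which libraries came from separate plants, and the p-values below measure the spread between these libraries.

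WRKY proteins bind W-box elements in promoters through a domain that carries the WRKY peptide, and they sort into groups I, IIa to IIe and III by the number of these domains and the type of zinc finger. In Arabidopsis many of them are switched on within minutes to hours of pathogen perception, wounding, cold or oxidative stress, and others act in senescence and hormone signalling. MAP kinase cascades act upstream of several members by phosphorylating them. The Arabidopsis numbers attached to the kale rows are the annotation's closest matches, and every role given below is known from Arabidopsis.

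By these numbers, 3 rows belonged to group I (WRKY4, WRKY26 and WRKY58), 1 to group IIa (WRKY60), 3 to group IIb (WRKY31 and 2 rows of WRKY47), 4 to group IIc (WRKY24, WRKY28, WRKY45 and WRKY49), 4 to group IId (WRKY11, WRKY15 and 2 rows of WRKY17), 1 to group IIe (WRKY27) and 4 to group III (WRKY30, WRKY41, WRKY53 and WRKY62). These 20 rows carry 18 distinct numbers. The remaining row, Bo7g115420, goes against the label. Its description reads as a WRKY family factor, but it is matched to AT4G31805, the Arabidopsis gene of POLAR, a protein of asymmetric division in the stomatal lineage, and it carries the term for asymmetric cell division and not the term for DNA binding. Of the 21 rows, 19 carry the term for sequence-specific DNA binding. WRKY47 (MSTRG.30495) has a name but no reference transcript, and the row of WRKY41 joins 2 neighbouring reference genes. Reads of close gene copies, such as the pairs of WRKY17 and WRKY47 rows, may have been divided between them by the alignment, and their levels are less certain for this reason.

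Values are FPKM, mapped fragments scaled to transcript length and to the size of the library. A mean of at least 1 FPKM in any group was reached by 15 of the 21 rows (71.4%), against 63.3% of all rows. The median of the mean level over the 12 libraries was 1.73 FPKM in these 15 rows and 5.02 FPKM in all 28682 rows that passed. Tests used limma on log2(FPKM + 1), and a row was called at a Benjamini-Hochberg adjusted p under 0.05 over all 28682 rows. Because 1 FPKM is added, log2 fold changes of low genes come out smaller than the ratios of their FPKM. WRKY31 and WRKY47 (MSTRG.30495) passed through S2 alone, WRKY27 through S3_S alone and Bo7g115420 through S1 alone, so counts and medians over the 15 rows describe the rows that passed and support no direction.

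The 6 rows below the minimum were WRKY62, WRKY45, WRKY30, WRKY47 (Bo9g004230), WRKY28 and WRKY24, and their group means lay between 0 and 0.912 FPKM. Next to the minimum, the highest group mean was 1.21 FPKM for WRKY27 in S3_S and 1.16 FPKM for WRKY47 (MSTRG.30495) in S2 on the upper side. On the lower side it was 0.912 FPKM for WRKY62 in S2 and 0.874 FPKM for WRKY45 in S3_S. WRKY24 was listed at 0 in all 3 S3_C libraries.

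Library properties bear on all comparisons. Relative depth, estimated from the FPKM steps and set to 1 in S1 replicate 1, lay between 0.901 and 1.36, and the FPKM summed to 429278 to 461587 per library. The median log2 fold change of all rows was 0.31 in S3_C against S3_S, 0.42 in S2 against S1, 0.26 in S3_S against S1 and 0.13 in S3_C against S2, and median-of-ratios scaling brought the first of these to 0.00. S2 replicate 1 stood apart: it was the highest of the 12 libraries for 8 of the 15 WRKY rows, as against 9.31% of all rows tested. None of the 5 mesophyll marker symbols matched a row, so the leaf identity of the libraries was not checked with them. In such bulk tissue, fewer cells of a type and less RNA per cell cannot be told apart.

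The first view of the family is its summed level. The 15 rows together reached 17.3, 16.6 and 12.1 FPKM in S1, 138, 53.04 and 38.6 FPKM in S2, 65.7, 66.1 and 42.4 FPKM in S3_C and 50.6, 34.1 and 48.7 FPKM in S3_S. Every S1 library therefore lay below each of the 9 other libraries, and S2 replicate 1 lay above all others. WRKY60 held 12.3% to 40.99% of this sum in the S2, S3_C and S3_S libraries, against 3.87% to 5.48% in the S1 libraries. The sum includes Bo7g115420, the row that goes against the label, at 0.213, 3.31 and 3.55 FPKM in S1. In S3_S this row was at 0.317, 0 and 0.0398 FPKM. It thus raises the sum in S1 and lowers the share of WRKY60 there.

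**Figure D1:**
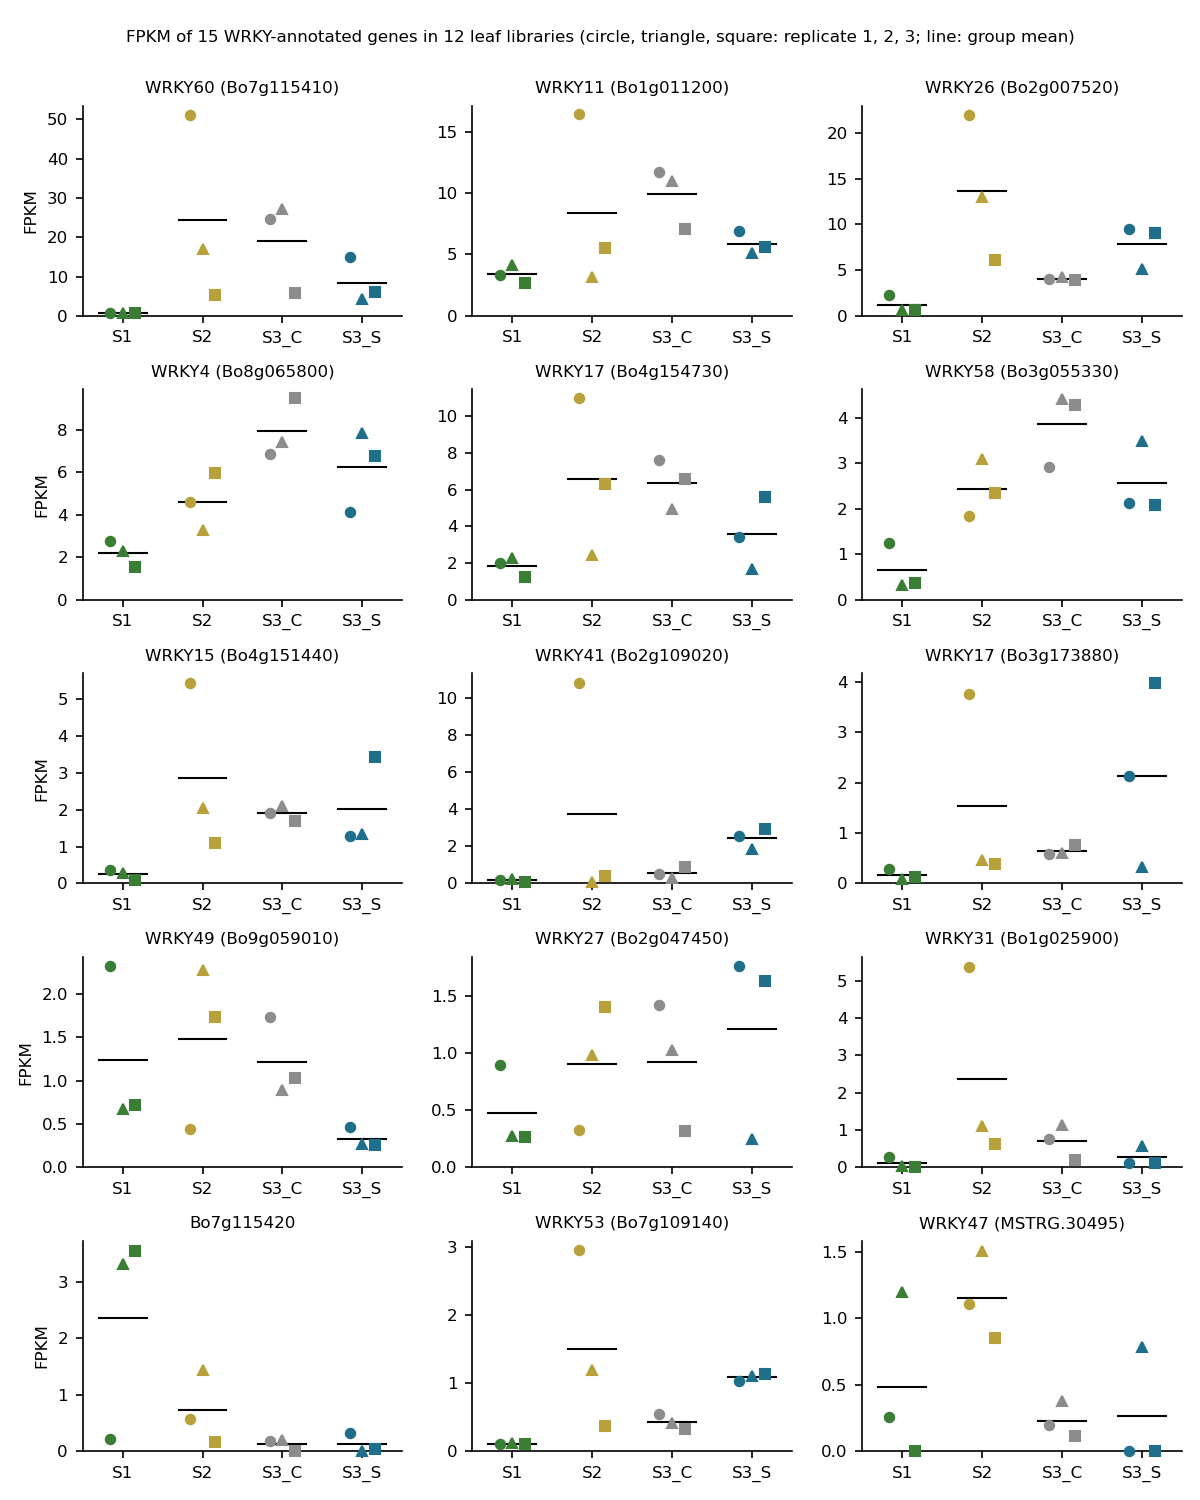
FPKM (y axis, linear, its own scale in each panel) of the 15 WRKY-annotated genes in the groups S1, S2, S3_C and S3_S (x axis), with 1 symbol per library and a line at the group mean. WRKY60 reached 50.99 FPKM in S2 replicate 1, against 0.641 to 0.844 FPKM in S1, and S2 replicate 1 was the highest library for 8 of the 15 genes.

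The comparison of S2 with S1 asks which members differed as the white center began to form. WRKY60, WRKY26, WRKY58, WRKY15 and WRKY53 rose in S2, 5 of the 15 rows, and none fell. Of all rows tested, 12.7% were called higher and 3.06% lower in this comparison. The median log2 fold change was 1.04 over the 15 WRKY rows and 0.42 over all rows tested. The rise was 34.1-fold in the ratio of mean FPKM for WRKY60 and 3.76-fold for WRKY58, with the other 3 genes between these. Without S2 replicate 1 the ratios were 15.6 for WRKY60, 6.32 for WRKY15 and 7.44 for WRKY53. WRKY58 lies outside the rule for named genes and was added after its values were seen, to complete the list of called genes.

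WRKY60, which with WRKY18 and WRKY40 forms the group IIa trio of Arabidopsis that tunes defence and abscisic acid responses, had the highest mean of all members. It measured 50.99, 16.95 and 5.33 FPKM in S2, against 0.844, 0.641 and 0.662 FPKM in S1. The S2 libraries differed widely from each other, but each lay above each S1 library. The log2 fold change was 3.40 ± 0.73 (SE, n = 3 each, limma adjusted p = 0.0158).

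WRKY26 is a group I member that acts with WRKY25 and WRKY33 in heat responses. It measured 21.9, 13 and 6.12 FPKM in S2, against 2.27, 0.684 and 0.599 FPKM in S1, without overlap. The log2 fold change was 2.67 ± 0.41 (SE, n = 3 each, limma adjusted p = 0.00678). WRKY58, a group I member described as a negative regulator of systemic acquired resistance, measured 1.85, 3.11 and 2.34 FPKM in S2, against 1.24, 0.333 and 0.366 FPKM in S1. Its log2 fold change was 1.09 ± 0.28 (SE, n = 3 each, limma adjusted p = 0.0274), and it was the only one of the 5 called genes whose highest S2 library was not replicate 1.

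WRKY15, a group IId member linked to growth under salt and oxidative stress, measured 5.45, 2.04 and 1.103 FPKM in S2, against 0.359, 0.290 and 0.0972 FPKM in S1. Its log2 fold change was 1.47 ± 0.38 (SE, n = 3 each, limma adjusted p = 0.0297). WRKY53, a group III regulator of leaf senescence, measured 2.95, 1.19 and 0.367 FPKM in S2, against 0.0976, 0.116 and 0.1 FPKM in S1. Its log2 fold change was 1.04 ± 0.32 (SE, n = 3 each, limma adjusted p = 0.0474), the closest to the threshold of the 5.

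In 9 of the 15 rows each S2 library lay above each S1 library, as it did in 31.3% of all rows tested, and 4 of these rows were not called. They were WRKY31, both WRKY17 rows and WRKY4, with limma adjusted p of 0.0582 to 0.237. WRKY31, of group IIb, measured 5.38, 1.11 and 0.629 FPKM in S2, against 0.275, 0.0395 and 0 FPKM in S1, with a log2 fold change of 1.35 ± 0.44 (SE, n = 3 each, limma adjusted p = 0.0582). It passed the minimum through S2 alone, so these values are a description and support no direction. WRKY17 (Bo4g154730), one of the matches of a group IId gene that with WRKY11 restrains basal resistance to Pseudomonas, measured 10.99, 2.43 and 6.28 FPKM in S2, against 2.002, 2.25 and 1.26 FPKM in S1 (log2 fold change 1.26 ± 0.44, SE, n = 3 each, limma adjusted p = 0.0697). The lowest S2 library of this gene, replicate 2, was only just above the highest S1 library.

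Of the 5 calls in S2 against S1, 4 were lost without S2 replicate 1. WRKY41, a group III member of pathogen and seed dormancy responses, measured 10.8, 0.0771 and 0.404 FPKM in S2, against 0.178, 0.250 and 0.0879 FPKM in S1, so that 2 of the 3 S2 libraries were at or near the S1 level. Its log2 fold change of 1.16 ± 0.68 did not pass (SE, n = 3 each, limma adjusted p = 0.241). Without S2 replicate 1, 1 of the 15 rows was called, WRKY26, and the same single row without S1 replicate 3. The higher calls numbered 2 without S1 replicate 2, 3 without S1 replicate 1 and 8 without S2 replicate 2, and without S1 replicate 1 Bo7g115420 was called lower (log2 fold change -1.43, limma adjusted p = 0.0217). The higher calls over all rows moved as well: there were 3652 with all libraries, 388 without S1 replicate 3, 1035 without S2 replicate 1 and 5037 without S2 replicate 2. A fit on the 6 libraries of S2 and S1 alone called none of the 15, and 17 rows higher and 7 lower in all, and with median-of-ratios or quantile scaling 2 of the 15, WRKY60 and WRKY26, were called.

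Genes of the MAP kinase cascade moved in the same comparison. Of the 10 symbols listed, 5 matched a row, and all 5 were called higher in S2 than in S1, as against 12.7% of all rows tested. The 5 genes were MKK1, MKK2, MPK4, MPK3 and MPK11, with log2 fold changes of 1.94, 1.37, 1.33, 2.56 and 2.60. MPK3, a kinase of early defence signalling, measured 129.8, 16.8 and 19.3 FPKM in S2, against 6.99, 5.73 and 3.26 FPKM in S1. MPK11 measured 69.3, 7.92 and 7.95 FPKM in S2, against 4.29, 1.11 and 1.25 FPKM in S1. Replicate 1 of S2 was again the highest library for both, and without it 2 of the 5 kinase genes were called, against 1 with either scaling and 0 in the fit on 6 libraries. TCH4, a touch-induced cell wall enzyme gene, was at 45.98 FPKM in S2 replicate 1 and at 0.0927 and 1.47 FPKM in S2 replicates 2 and 3. It was also high in S3_C (46.7, 114.8 and 15.2 FPKM) and S3_S (32.5, 52.3 and 20.7 FPKM), and at 0.0647 to 0.282 FPKM in S1. The part of these differences between libraries in the WRKY levels was not tested.

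**Figure D2:**
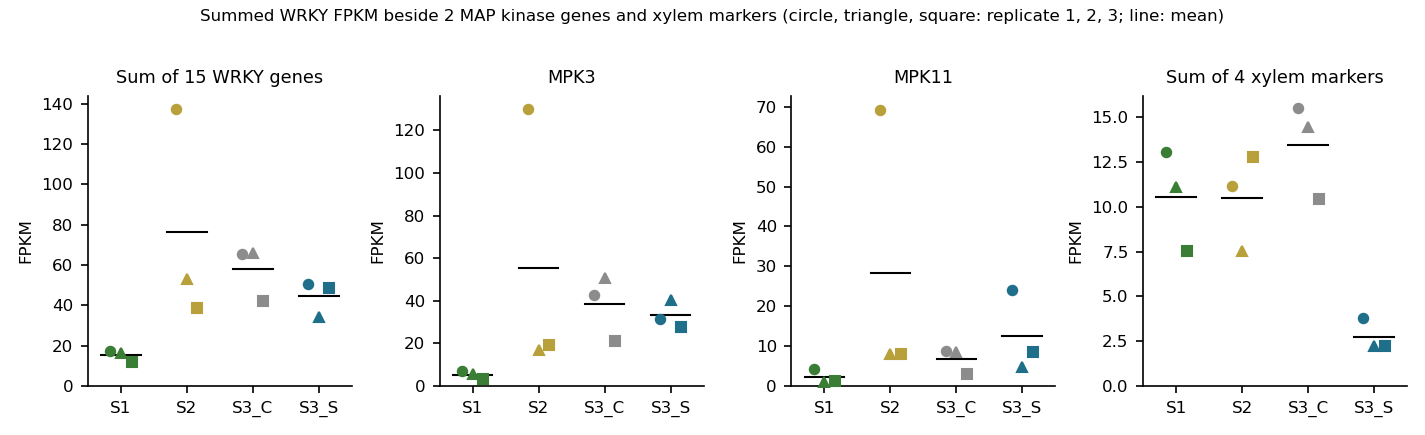
FPKM (y axes, linear) of the sum of the 15 WRKY genes, MPK3, MPK11 and the sum of 4 xylem marker genes in each library by group (x axis), with 1 symbol per replicate and a line at the group mean. S2 replicate 1 reached 138 FPKM for the WRKY sum, 129.8 FPKM for MPK3 and 69.3 FPKM for MPK11, and the xylem sum was 2.23 to 3.81 FPKM in S3_S.

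The comparison of S3_S with S1 sets the green margin of variegated leaves against entirely green leaves. Veins were removed from S1, and the labels do not state this for S3_S. Leaf part, vein removal and stage therefore cannot be told apart in it. WRKY60, WRKY26, WRKY4, WRKY58, WRKY15 and WRKY53 rose in S3_S, 6 of the 15 rows, and 1 row, Bo7g115420, was called lower. Of all rows tested, 22.3% were called higher and 10.4% lower. The median log2 fold change was 0.92 over the 15 WRKY rows and 0.26 over all rows tested. This comparison uses the same S1 libraries as that of S2 with S1.

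WRKY26 measured 9.46, 5.08 and 9.11 FPKM in S3_S, against 2.27, 0.684 and 0.599 FPKM in S1. Its log2 fold change of 2.06 ± 0.41 (SE, n = 3 each, limma adjusted p = 0.00703) was the only one of the 12 called differences of the WRKY rows that was called under each of its 13 alternatives. WRKY60 measured 14.9, 4.35 and 6.003 FPKM in S3_S, against 0.844, 0.641 and 0.662 FPKM in S1. Its log2 fold change was 2.30 ± 0.73 (SE, n = 3 each, limma adjusted p = 0.0343). The call of WRKY60 held in 5 of 13 alternatives and was lost when any 1 library of S3_S or S1 was left out.

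WRKY4, a group I member that with WRKY3 contributes to resistance to necrotrophic fungi, measured 4.14, 7.84 and 6.75 FPKM in S3_S, against 2.77, 2.29 and 1.55 FPKM in S1. Its log2 fold change was 1.16 ± 0.27 (SE, n = 3 each, limma adjusted p = 0.0120). WRKY58 measured 2.13, 3.49 and 2.09 FPKM in S3_S, against 1.24, 0.333 and 0.366 FPKM in S1 (log2 fold change 1.14 ± 0.28, SE, n = 3 each, limma adjusted p = 0.0130). For both genes each S3_S library lay above each S1 library, and the share of all rows that separated in this way was not computed for this comparison.

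WRKY53 had the smallest spread inside both groups among the called genes, but its call was not stable. It measured 1.04, 1.11 and 1.14 FPKM in S3_S, against 0.0976, 0.116 and 0.1 FPKM in S1, a 10.5-fold ratio of means with almost no spread inside either group. The log2 fold change on the log2(FPKM + 1) scale was 0.92 ± 0.32 (SE, n = 3 each, limma adjusted p = 0.0450). The call held in 4 of 12 alternatives. It was lost when any 1 library of S3_S or S1 was left out (limma adjusted p 0.0698 to 0.114). WRKY15 measured 1.296, 1.36 and 3.43 FPKM in S3_S, against 0.359, 0.290 and 0.0972 FPKM in S1 (log2 fold change 1.21 ± 0.38, SE, n = 3 each, limma adjusted p = 0.0337).

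WRKY41 and WRKY17 (Bo3g173880) had larger differences that did not pass. WRKY41 measured 2.55, 1.87 and 2.92 FPKM in S3_S, against 0.178, 0.250 and 0.0879 FPKM in S1, a 14.2-fold ratio of means without overlap. Its S2 libraries, which enter the same fit, ranged from 0.0771 to 10.8 FPKM, and the log2 fold change was 1.54 ± 0.68 (SE, n = 3 each, limma adjusted p = 0.1002). A fit on the 6 libraries of S3_S and S1 alone called it, with an adjusted p of 0.00986. WRKY17 (Bo3g173880) measured 2.13, 0.317 and 3.97 FPKM in S3_S, against 0.279, 0.0835 and 0.136 FPKM in S1 (log2 fold change 1.23 ± 0.51, SE, n = 3 each, limma adjusted p = 0.0822).

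Bo7g115420, the row matched to POLAR, passed the minimum through S1 alone, the group where it was high, so its lower call in this comparison is given as a description and supports no direction. It measured 0.317, 0 and 0.0398 FPKM in S3_S, against 0.213, 3.31 and 3.55 FPKM in S1, and the groups overlapped because S1 replicate 1 was low (log2 fold change -1.37 ± 0.46, SE, n = 3 each, limma adjusted p = 0.0405). It was named after its values were seen.

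With a pseudocount of 0.1 FPKM, 8 rows were called higher, with WRKY41 and WRKY17 (Bo3g173880) added. Leaving out 1 library at a time gave 1 to 4 higher calls, with 1 without S1 replicate 3, 2 without S3_S replicate 2 or 3, and 3 without S1 replicate 2. The lower call of Bo7g115420 was lost without S1 replicate 2 or 3 or any S3_S library. Beside these genes, MKK1 and MPK3 were the called ones of the 5 kinase genes (log2 fold changes 0.93 and 2.47), and TCH4 rose by a log2 fold change of 4.90 (limma adjusted p = 0.0110). The share of all rows tested that was called higher in this comparison was 22.3%.

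**Figure D3:**
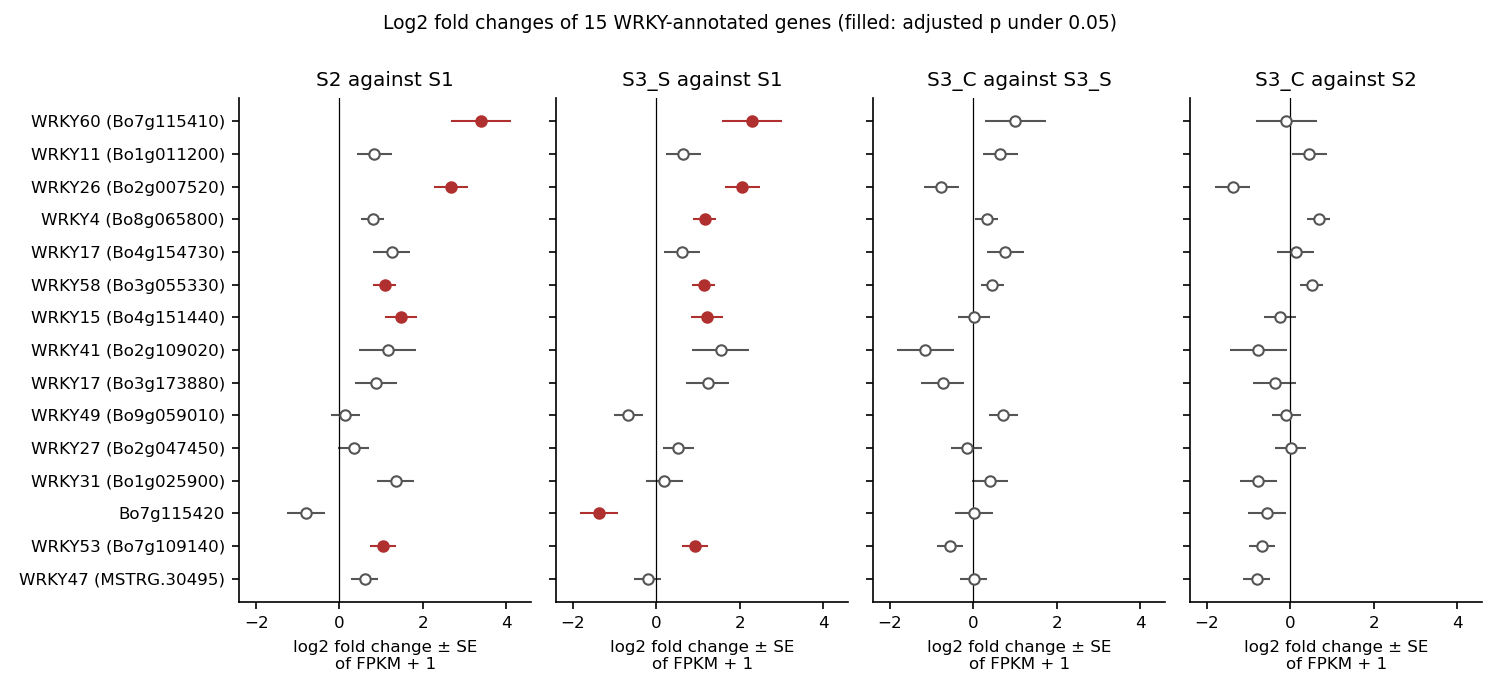
Log2 fold change with its SE (x axis, on the log2(FPKM + 1) scale) of the 15 WRKY-annotated genes (y axis, by mean level) in the 4 comparisons, with filled points for an adjusted p under 0.05. There were 5 filled points in S2 against S1, 7 in S3_S against S1 and 0 in the other comparisons.

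The comparison of S3_C with S3_S sets the white center against the green margin of the same leaf stage. None of the 15 WRKY rows was called higher or lower by limma, and 0 had an unadjusted p under 0.05. The lowest unadjusted p was 0.0632, for WRKY49. Of all rows tested, 4.79% were called higher and 2.00% lower. The median log2 fold change was 0.01 over the 15 WRKY rows and 0.31 over all rows tested. A per-gene linear model of the Ballgown kind, with the call rule of the paper (p without adjustment below 0.05, log2 fold change beyond 1 in size), called 1 row lower, WRKY47 (MSTRG.30495), and 1.38% of all rows lower and 1.28% higher. The model's covariate was the sum of log2(FPKM + 1) over the non-zero values of a library below its upper quartile. Median log2(FPKM + 1) of the rows tested was 2.68 to 2.74 in the S3_C libraries and 2.33 to 2.48 in the S3_S libraries. How far the covariate followed the sector was not tested. WRKY47 (MSTRG.30495) averaged 0.229 FPKM in S3_C and 0.262 FPKM in S3_S, and its log2 fold change was -2.19 in that model and 0.01 in limma. The same model gave WRKY26 0.88, against -0.77 in limma, so its estimates depended on the covariate.

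In 3 rows each S3_C library lay below each S3_S library, and in 2 rows above. Of all rows tested, 7.80% lay below and 30.7% above in this way. WRKY41 had the largest of these differences, with 0.514, 0.277 and 0.866 FPKM in S3_C, against 2.55, 1.87 and 2.92 FPKM in S3_S. The log2 fold change was -1.15 ± 0.68 (SE, n = 3 each, limma adjusted p = 0.297). A fit on the 6 libraries of these groups alone called it lower, with an adjusted p of 0.0335.

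WRKY26 and WRKY53 lay in the same direction. WRKY26 measured 4.05, 4.23 and 3.90 FPKM in S3_C, against 9.46, 5.08 and 9.11 FPKM in S3_S (log2 fold change -0.77 ± 0.41, SE, n = 3 each, limma adjusted p = 0.253). WRKY53 measured 0.547, 0.408 and 0.318 FPKM in S3_C, against 1.04, 1.11 and 1.14 FPKM in S3_S (log2 fold change -0.56 ± 0.32, SE, n = 3 each, limma adjusted p = 0.278). The log2 fold changes of both were further below 0 with median-of-ratios scaling, at -1.099 and -0.69.

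WRKY11 and WRKY49 were higher in every S3_C library than in any S3_S library. WRKY11, the group IId partner of WRKY17, measured 11.8, 10.98 and 7.06 FPKM in S3_C, against 6.93, 5.08 and 5.63 FPKM in S3_S (log2 fold change 0.65 ± 0.43, SE, n = 3 each, limma adjusted p = 0.345). WRKY49, of group IIc, measured 1.73, 0.890 and 1.03 FPKM in S3_C, against 0.459, 0.272 and 0.261 FPKM in S3_S (log2 fold change 0.72 ± 0.35, SE, n = 3 each, limma adjusted p = 0.207). With median-of-ratios scaling the log2 fold changes were 0.28 for WRKY11 and 0.53 for WRKY49, and -1.31 for WRKY41.

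WRKY60 showed no separation between the sectors. It measured 24.6, 27.1 and 5.73 FPKM in S3_C, against 14.9, 4.35 and 6.003 FPKM in S3_S, and S3_C replicate 3 was lower than 2 of the 3 S3_S libraries. The log2 fold change was 1.01 ± 0.73 (SE, n = 3 each, limma adjusted p = 0.391).

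The xylem markers moved with this comparison. All 4 matched genes, of 9 listed, were called higher in S3_C, namely the secondary wall cellulose synthase genes IRX1 and IRX5, IRX9 and the protease gene XCP1, with log2 fold changes of 1.40, 1.24, 0.96 and 1.61. Their summed level was 10.5 to 15.5 FPKM in S3_C, against 2.23 to 3.81 FPKM in S3_S. It was 7.56 to 13.05 FPKM in S1 and 7.51 to 12.8 FPKM in S2, so both overlapped S3_C and S3_S alone stood apart. Of the 4 genes, 3 were called lower in S3_S than in S1. Of all rows tested, 4.79% were called higher in S3_C than in S3_S and 10.4% lower in S3_S than in S1. Without S3_C replicate 1 none of the 4 was called in S3_C against S3_S, and 1 was called without S3_C replicate 2 or S3_S replicate 3. The part of vascular tissue in the WRKY values of the sectors was not tested.

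The pair of WRKY17 genes, matched to the same Arabidopsis gene, is described by its levels and their ratio, which no test could place beyond the spread between libraries. Bo4g154730 measured 7.62, 4.95 and 6.57 FPKM in S3_C, against 3.43, 1.68 and 5.61 FPKM in S3_S. Bo3g173880 measured 0.578, 0.6 and 0.757 FPKM in S3_C, against 2.13, 0.317 and 3.97 FPKM in S3_S. Neither gene passed the limma test by itself, with adjusted p of 0.279 and 0.372.

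The log2 ratio of Bo4g154730 to Bo3g173880, each plus 1 FPKM, was 2.45, 1.90 and 2.11 in S3_C, against 0.50, 1.02 and 0.41 in S3_S. It averaged 2.15 ± 0.28 in S3_C and 0.65 ± 0.33 in S3_S (SD, n = 3 each). The difference of 1.504 had an exact two-sided permutation p = 0.1, the smallest that 3 against 3 libraries allow, and the ratio was computed after the values of the pair were seen. In S2 the ratio was 1.33, 1.22 and 2.39, against 1.23, 1.58 and 0.99 in S1, with overlap (difference 0.38, exact permutation p = 0.6). The ratio was lower in S3_S than in S1 (difference -0.62, exact permutation p = 0.2), with overlap. It was higher in S3_C than in S2 (difference 0.50, exact permutation p = 0.3), also with overlap. None of these 4 comparisons could pass 0.05 in this test, whatever the size of the difference, and no other test of the ratio was run. With 0.1 FPKM added in place of 1, the difference was 2.02 in S3_C against S3_S and -0.43 in S2 against S1. S3_S then lay below S1 without overlap (means 1.08 and 2.89, exact permutation p = 0.1), so the ratios depended on the added value.

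**Figure D4:**
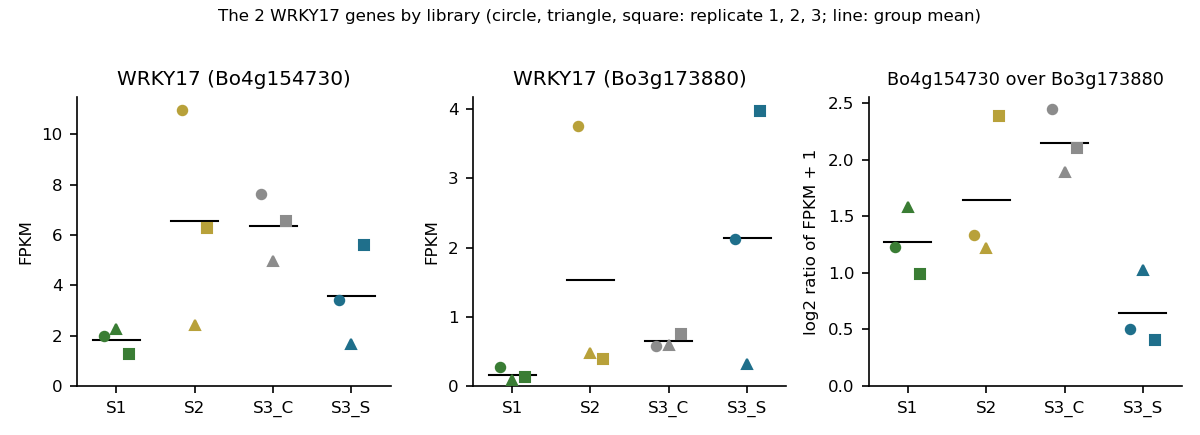
FPKM (y axes, linear) of the 2 WRKY17 genes and the log2 ratio of Bo4g154730 to Bo3g173880, each plus 1 FPKM, by group (x axis), with 1 symbol per replicate and a line at the group mean. The ratio was 1.90 to 2.45 in S3_C and 0.41 to 1.02 in S3_S.

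The comparison of S3_C with S2 sets white leaf centers against S2 leaves, which still held green tissue, so sector and stage cannot be told apart in it. None of the 15 WRKY rows was called by limma, 3 had an unadjusted p under 0.05, and of all rows tested 0.00349% were called higher and 0.00697% lower. WRKY26 measured 4.05, 4.23 and 3.90 FPKM in S3_C, against 21.9, 13 and 6.12 FPKM in S2 (log2 fold change -1.38 ± 0.41, SE, n = 3 each, limma adjusted p = 0.330). WRKY4 ran the other way, with 6.86, 7.41 and 9.502 FPKM in S3_C, against 4.61, 3.26 and 5.97 FPKM in S2 (log2 fold change 0.69 ± 0.27, SE, n = 3 each, limma adjusted p = 0.382). WRKY47 (MSTRG.30495) measured 0.199, 0.376 and 0.113 FPKM in S3_C, against 1.105, 1.51 and 0.856 FPKM in S2 (log2 fold change -0.81 ± 0.33, SE, n = 3 each, limma adjusted p = 0.383). For these genes the libraries of the groups did not overlap, and the share of all rows without overlap was not computed for this comparison. WRKY47 (MSTRG.30495) passed the minimum through S2 alone, so its difference is given as a description and supports no direction.

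Over the 4 groups together, a moderated F test called 5 of the 15 WRKY rows, WRKY60, WRKY26, WRKY4, WRKY58 and WRKY15, and 44.8% of all rows tested. In 7 of the 15 rows each S1 library lay below each of the 9 other libraries, as it did in 17.8% of all rows tested. These were WRKY60, WRKY26, WRKY4, WRKY58, WRKY15, WRKY53 and WRKY17 (Bo3g173880). By group, all 3 group I rows, the group IIa row, 2 of the 4 group IId rows and 1 of the 2 tested group III rows were among them. The tested rows of group IIb (WRKY31 and WRKY47, MSTRG.30495), IIc (WRKY49) and IIe (WRKY27) were not. WRKY31 and WRKY47 (MSTRG.30495) passed the minimum through S2 alone and WRKY27 through S3_S alone. With so few rows in each group, these counts support no difference between the WRKY groups.

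The later group with the highest mean was not the same for all members. No WRKY row was called in S3_C against S3_S or S3_C against S2, and S3_S was not tested against S2. The order of these means is a description and supports no difference between the later groups. The share of all rows with their highest mean in S2 was not computed. WRKY4 had means of 2.20 ± 0.61, 4.61 ± 1.4, 7.92 ± 1.4 and 6.25 ± 1.9 FPKM in S1, S2, S3_C and S3_S, and WRKY58 had 0.646 ± 0.51, 2.43 ± 0.63, 3.88 ± 0.83 and 2.57 ± 0.80 FPKM (SD, n = 3 each), both highest in S3_C. WRKY26, WRKY60, WRKY15, WRKY31 and WRKY53 had their highest mean in S2, as did WRKY17 (Bo4g154730), WRKY41, WRKY49 and WRKY47 (MSTRG.30495). Without S2 replicate 1, S2 stayed highest for 4 of these 9 rows, WRKY26, WRKY31, WRKY49 and WRKY47 (MSTRG.30495). The S2 mean of WRKY60 was then 11.1 FPKM, below its S3_C mean of 19.2 FPKM. WRKY31 and WRKY47 (MSTRG.30495) passed the minimum through S2 alone, so their highest mean in S2 was set by the filter and supports no direction. The S2 libraries of some genes spread widely, with a standard deviation of 57.9% of the mean for WRKY26, 97.2% for WRKY60 and 162% for WRKY41. WRKY26 was nearly constant in S3_C, where this share was 3.97%.

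The remaining lists of partner and pathway genes gave few calls. None of 3 VQ protein genes, which bind WRKY factors, and none of 4 camalexin genes matched a row. Of 18 salicylic acid pathway symbols, 5 matched and 4 were tested, with 0 calls in any comparison, and of 10 senescence symbols 2 were tested with 0 calls. Of 10 jasmonate symbols 2 were tested, and OPR3, an enzyme of jasmonate synthesis, was called higher in S2 than in S1 (39.6, 34.3 and 34.1 FPKM in S2, against 8.22, 4.72 and 3.47 FPKM in S1, log2 fold change 2.58, limma adjusted p = 0.00176). The cold-response gene RD29A (1 of 13 symbols), the phloem gene SEOR1 (1 of 5) and the guard cell gene SLAC1 (1 tested of 7 epidermal symbols) were not called in any comparison. FRK1, the single match of 5 pattern recognition symbols, stayed below the minimum.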

How the data were processed

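Poly(A) RNA of 12 libraries was sequenced in pairs of reads on an Illumina HiSeq instrument. Per the paper's methods and the submitters' processing notes, the authors removed low-quality reads, aligned the rest to the Brassica oleracea genome with HISAT (the notes name HISAT2 2.0), assembled and merged transcripts with StringTie 1.3.0 and deposited 1 table of gene FPKM. No coordinates or sequences were used here.

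Rows with a mean of at least 1 FPKM in any group (28682 of 45325) were tested with limma 3.58.1 (R 4.3.3) on log2(FPKM + 1), with all 12 libraries in 1 fit, a mean-variance trend and Benjamini-Hochberg adjustment over all rows tested. A moderated F test covered the 4 groups. The script was tested on simulated data. The 4 comparisons share libraries with each other, and no overlap between them was computed. The members and gene lists were chosen with earlier results of these data known. Other genes were matched by Arabidopsis gene or symbol. Named genes were, among rows that passed, the 5 with the largest change without overlap in each comparison, the 5 highest, those with a fixed set of numbers (of which WRKY53 and WRKY60 passed), and 2 rows on either side of the minimum.

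Samples were grouped by their labels. Same-numbered S3_C and S3_S libraries deviated together from their group means (correlations of 0.103, 0.384 and 0.447 over genes), and so did those of S3_C and S2 (0.218 to 0.497). The same-numbered libraries of S2 and S1 did not (-0.375 to 0.197), nor did those of S3_S and S1 (-0.190 to 0.0152). Those of S2 and S3_S gave -0.040 to 0.396. Differently numbered libraries gave -0.457 to 0.226 between S3_C and S3_S, a range that overlaps the same-numbered values. They gave -0.418 to 0.212 between S3_C and S2, and up to 0.456 between S1 and S2. The labels do not state that numbers mark shared plants, so any pairing rests on these correlations, which do not settle it. The alternatives were another pseudocount (0.1), other filters, median-of-ratios and quantile scaling, 6 libraries in the fit, a replicate block, the paper's call rule and leaving out each library. FPKM gives no counts, so no counting interval was computed.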

Additional observations from a re-analysis of the deposited data

How the results depend on the processing

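In S3_C against S3_S, no row was called higher under any alternative, and 1 was called lower with 6 libraries in the fit (WRKY41) and 1 with the Ballgown model (WRKY47, MSTRG.30495, below 1 FPKM in both groups). The median log2 fold change of the 15 WRKY rows was -0.038 with median-of-ratios scaling and -0.088 with quantile normalization, in place of 0.01, and that of all rows tested was 0.00 and 0.05, in place of 0.31. Over all rows, median-of-ratios scaling gave 379 higher and 831 lower calls, in place of 1374 and 574. In S2 against S1, 5 higher calls became 2 with either scaling (WRKY60 and WRKY26) and 0 with 6 libraries in the fit. With a pseudocount of 0.1 there were 6, WRKY31 added, and with no filter 4, with WRKY62 added and WRKY15 and WRKY53 lost. Leaving out single libraries gave 1 to 8 higher and 0 to 1 lower calls. The count was 1 without S2 replicate 1 or S1 replicate 3, 2 without S1 replicate 2, 3 without S1 replicate 1 and 8 without S2 replicate 2. In S3_S against S1, 6 higher calls became 8 with a pseudocount of 0.1 (WRKY41 and WRKY17, Bo3g173880, added), 7 with 6 libraries in the fit (WRKY41 added), 3 with no filter and 3 with quantile normalization, and 1 to 4 without single libraries. The 1 lower call became 0 with no filter, with the filter on all 12 libraries, where Bo7g115420 was not tested, and with 6 libraries in the fit, and 0 to 1 without single libraries. In S3_C against S2, the paper's call rule gave 1 lower row, WRKY26. The F test's 5 rows became 3 with quantile normalization and 3 to 8 without single libraries (8 without S2 replicate 1). The cause of these changes was not tested.

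The 12 called log2 fold changes kept their direction in all 153 alternatives and their call in 91. WRKY26 in S3_S against S1 was called in each of 13 (adjusted p 0.00485 to 0.0354), and in S2 against S1 in 12 of 13 (0.00289 to 0.0737, lost with 6 libraries in the fit). WRKY60 in S2 against S1 was called in 10 of 13 (0.00761 to 0.0769). WRKY53 in S2 against S1 was called in 3 of 12 (0.0140 to 0.197), the fewest. With the replicate block, the calls were 0 higher and 0 lower in S3_C against S3_S, 6 higher and 0 lower in S2 against S1, 6 higher and 1 lower in S3_S against S1, 0 and 0 in S3_C against S2, and 7 in the F test. The block added WRKY31 in S2 against S1 and changed no other call of the 4 comparisons. The low levels, with a median of 1.73 FPKM over the 15 rows, limit the precision.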
